A study of Homo sapiens with 16 samples.

Results

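The 10 genes described here encode feedback inhibitors and transcription factors of the receptor tyrosine kinase, RAS and ERK (MAP kinase) pathway: the phosphatases DUSP6, DUSP4 and DUSP5, the inhibitors SPRY2, SPRY4 and SPRED1, the factors ETV1, ETV4 and ETV5, and PHLDA1. The set was chosen by the MDA-MB-468 signals of DUSP6 and ETV1. Its genes were picked because DUSP6 and ETV1 were higher after EZH2 knockdown there, so the changes in that line are given as a description, with no test. Each gene was read from the transcript cluster whose only symbol it is, and each had exactly 1 such cluster. They make up 10 of the 19460 clusters with 1 symbol, out of 33297 clusters on the array. The clusters are 7965335 (DUSP6), 8150076 (DUSP4), 7930413 (DUSP5), 7972217 (SPRY2), 8114797 (SPRY4), 7982564 (SPRED1), 8138289 (ETV1), 8015806 (ETV4), 8092578 (ETV5) and 7965040 (PHLDA1).

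Gene expression was measured on Affymetrix Human Gene 1.0 ST arrays in 2 established lines of basal-like human breast cancer, HCC70 and MDA-MB-468, after manipulation of EZH2, the catalytic subunit of Polycomb repressive complex 2, and EED, a core subunit of the same complex. Cells of every group had been infected with a viral vector and selected with puromycin, controls included. In every group polybrene was used at 6 ug/ml and puromycin at 1 ug/ml, with selection started at 48 h. Cells were seeded 24 h before RNA was taken. In HCC70 the 6 groups carried a scrambled shRNA (sets a and b), shEZH2, shEED, the empty vector plKO Puro, or the EZH2 cDNA vector fip EZH2. In MDA-MB-468 the 2 groups carried a scrambled shRNA or shEZH2, and each of the 8 groups had 2 arrays. One shRNA label is given per target, so a second hairpin against the same gene cannot be compared, and the sources used here do not name the promoter that drives the EZH2 cDNA. Each treatment had a control of its own by the series design, but the labels do not say which scrambled set belongs to which knockdown. Set a was paired with shEZH2 and set b with shEED from the order of the sample codes, and the results of the 10 genes are also given against the other HCC70 control groups.

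ERK, the last kinase of the cascade, switches on genes whose products shut the cascade down. Dual-specificity phosphatases remove the activating phosphates from ERK, with DUSP6 acting in the cytoplasm and DUSP4 and DUSP5 in the nucleus. Sprouty and SPRED proteins act higher up, between the receptors and RAF. ETV1, ETV4 and ETV5 form the PEA3 group of ETS transcription factors, which are induced by ERK signalling and held down by the repressor Capicua (CIC) when ERK is quiet. Because these transcripts follow ERK activity, they are often read as a measure of pathway output in tumours. No phosphorylated ERK was measured here.

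Signals are RMA values on the log2 scale, so a difference of 1 is a doubling, and changes are treated minus control with the standard error of a limma fit over all 16 arrays. A change is called at an adjusted p under 0.05 (limma, Benjamini-Hochberg over 16175 clusters). To enter the fit, a cluster had to reach log2 6, a floor for low signal, on 2 or more of the 16 arrays. Levels are not compared between genes, because different probes differ in brightness.

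Of the 10 genes, 9 passed this filter. SPRY4 reached log2 6 on no array (4.27 to 5.58) and was not tested. DUSP5, SPRY2, SPRED1 and PHLDA1 reached the floor on all 16 arrays, ETV4 on 15 and DUSP6 on 14. DUSP4 reached it on 7 arrays. ETV5 reached it on 3, all of MDA-MB-468, so it was tested only through the line that chose the genes. Its calls in HCC70 rest on signals of at most 5.52, below the floor on every array. ETV1 reached it on only 2, namely 1 array of shEZH2 in HCC70 and 1 of shEZH2 in MDA-MB-468. ETV1 was therefore tested only because it is high after EZH2 knockdown, so its values after that knockdown are given as a description, without a p, although the fit's counts include it. Group means below the floor were those of SPRY4 and ETV1 in all 8 groups, and of ETV5 in all 6 groups of HCC70 and the MDA-MB-468 control. Also below it were DUSP4 in set a, shEZH2 of HCC70 and the empty vector, DUSP6 in set a, and ETV4 in shEZH2 of HCC70. The size of a difference that involves these means is less certain. Over the 16 arrays DUSP6 (5.37 to 7.74) and ETV1 (4.03 to 6.16) had the widest ranges of the 10, 2.37 and 2.13. DUSP4 ran from 5.27 to 6.43, ETV4 from 5.91 to 6.98, ETV5 from 4.77 to 6.09 and SPRED1 from 7.18 to 8.14. The SD within groups was 0.04 (DUSP5) to 0.18 (ETV1).

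The promoters of DUSP6 and ETV1, which led to the choice of these genes, and of SPRY2, which moved the other way in HCC70, are shown as the 250 bases before the RefSeq start (GRCh38.p14), 5′ to 3′ on the gene's strand. DUSP6 lies at chr12:89352502-89352751, SPRY2 at chr13:80341127-80341376 (1 of its 3 listed starts) and ETV1 at chr7:13991426-13991675 (1 of its 6), each on the minus strand. The ETV1 start shown is the 1 of its 6 that holds the single motif match, marked in capitals.
DUSP6: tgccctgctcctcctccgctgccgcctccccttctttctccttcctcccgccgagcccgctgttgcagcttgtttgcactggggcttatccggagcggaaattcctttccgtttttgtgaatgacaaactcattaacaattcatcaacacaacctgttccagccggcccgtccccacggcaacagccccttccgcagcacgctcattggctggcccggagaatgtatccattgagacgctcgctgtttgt
SPRY2: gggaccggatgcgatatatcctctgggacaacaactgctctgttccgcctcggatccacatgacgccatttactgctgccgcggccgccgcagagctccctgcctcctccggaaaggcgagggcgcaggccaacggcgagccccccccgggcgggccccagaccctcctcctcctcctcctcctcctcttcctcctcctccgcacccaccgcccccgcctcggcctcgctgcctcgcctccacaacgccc
ETV1: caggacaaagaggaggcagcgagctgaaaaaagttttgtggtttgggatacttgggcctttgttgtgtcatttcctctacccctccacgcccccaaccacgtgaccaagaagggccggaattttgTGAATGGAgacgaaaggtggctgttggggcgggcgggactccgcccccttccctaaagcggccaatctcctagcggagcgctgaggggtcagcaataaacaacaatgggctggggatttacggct
The match is TGAATGGA, an octamer bound by Capicua, and its first base lies 125 bases before the ETV1 start. Windows from 250 bases before to 50 bases after each start were searched on both strands for 4 motif sets: the Capicua octamers TGAATGAA and TGAATGGA, the ETS motif CCGGAAGT, the AP-1 motif TGACTCA and the cAMP response element TGACGTCA. Of the 10 genes, 6 were in the promoter table, and 1 of those 6 held a Capicua octamer, against 2.63% of all 35116 promoters and 3.22% of all 27305 genes in the table. That gene was ETV1, whose 6 listed starts gave more windows to search than a gene with 1 start has. The other 3 motif sets matched in 0 of the 6 genes. They were found in 4.95% (ETS), 6.05% (AP-1) and 2.25% (cAMP response element) of all genes in the table. These are matches of letters and do not show binding.

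In HCC70, EZH2 knockdown against set a came with more DUSP6 and less SPRY2 signal, and ETV1 was higher on both arrays. DUSP6 was 5.37 and 5.74 in set a and 6.53 and 6.08 in the shEZH2 arrays, a rise of 0.75 ± 0.14 (SE, n = 2 arrays per group; adjusted p = 0.00657) from a control mean below the floor. ETV1 was 4.23 and 4.03 in set a and 6.16 and 5.54 in the shEZH2 arrays, a difference of 1.73 between means that are both below the floor, so its size is uncertain. Both treated arrays lay above both control arrays for these genes, as held for 28.2% of clusters. SPRY2 was 7.85 and 7.98 in set a and 7.44 and 7.63 in the shEZH2 arrays, a change of -0.38 ± 0.085 (adjusted p = 0.0142). Of the 9 tested genes, 2 were called higher (DUSP6 and ETV1, the latter in the test only through shEZH2 arrays) and 1 lower, beside 11.4% of all tested clusters called (7.3% higher and 4.06% lower). ETV5, below the floor in both groups, changed by 0.38 ± 0.12 and missed the threshold (adjusted p = 0.0540). DUSP5 (-0.04), DUSP4 (-0.07), ETV4 (-0.08), SPRED1 (0.08) and PHLDA1 (0.14) were not past it either, with 95% intervals that ran from -0.34 (DUSP4) to 0.31 (PHLDA1). The knockdown itself was present, with EZH2 2.76-fold lower. Without set a replicate 1 the DUSP6 change was 0.57 and lost its call (adjusted p = 0.0711). SPRY2 lost its call without set a replicate 2 (adjusted p = 0.133) or without shEZH2 replicate 1 (0.0733), while ETV5 gained one without shEZH2 replicate 2 (0.57, adjusted p = 0.00702).

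**Figure D1:**
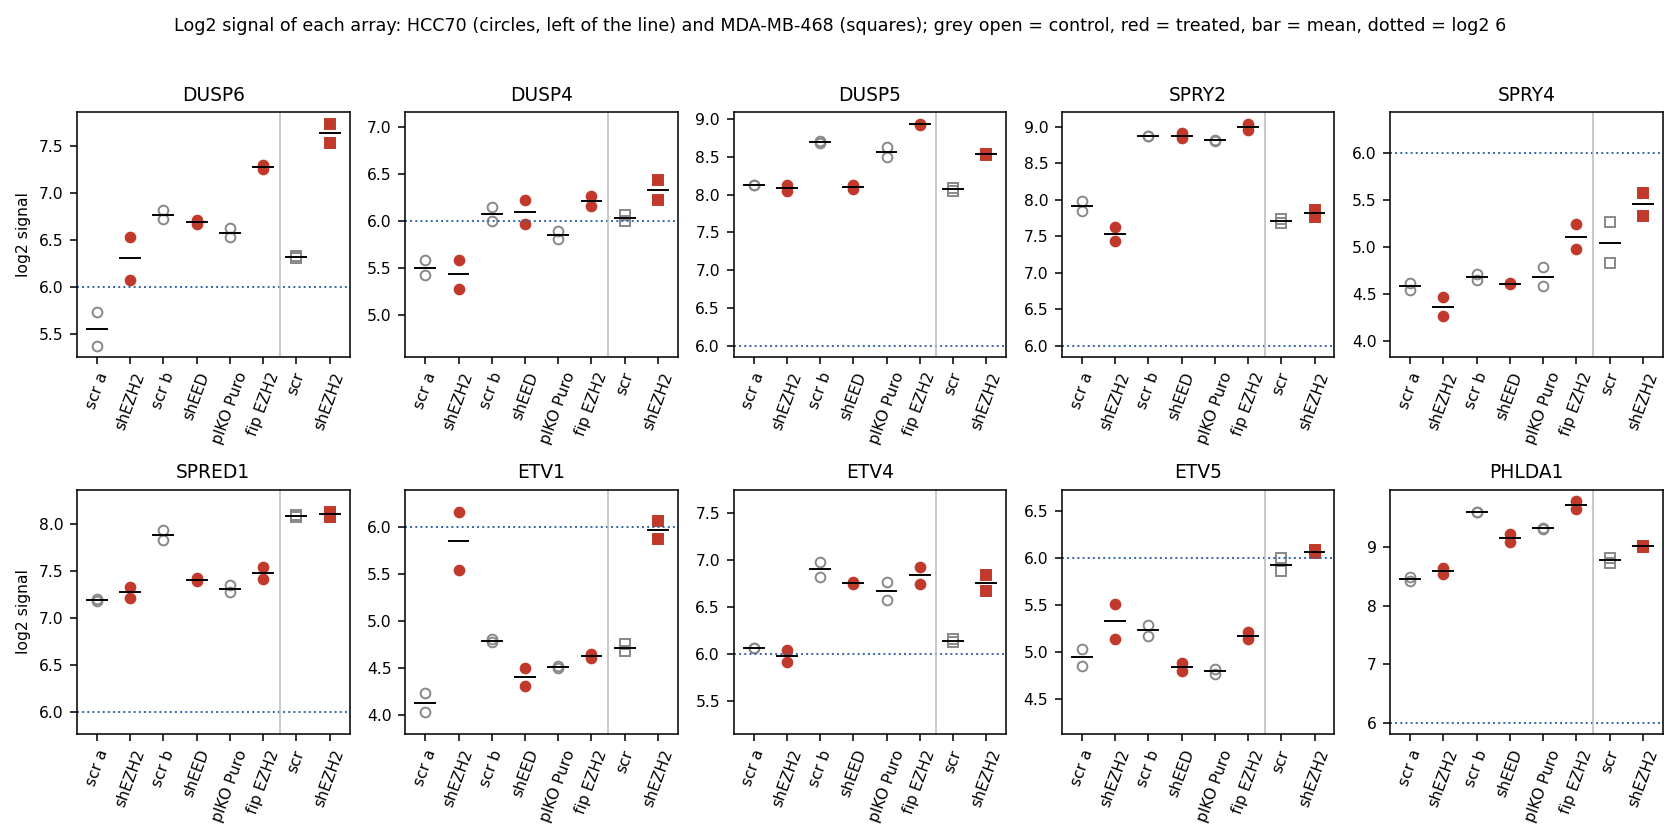
Log2 signal of the 10 genes on each of the 16 arrays, by group, with a bar at each group mean and a dotted line at log2 6. ETV1 stands high only in the shEZH2 groups of the 2 lines, whereas SPRY2, ETV4 and PHLDA1 are low in both set a and the shEZH2 arrays of HCC70 and higher in the other 4 HCC70 groups.

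By the number of genes called, the scrambled sets differed from each other more widely than the shEZH2 arrays differed from set a. For ETV1, ETV5 and the untested SPRY4, all below the floor in these groups, the knockdown change was the larger (1.73, 0.38 and -0.22). Set b was above set a for 8 of the 9 tested genes, all but ETV5 (0.29, adjusted p = 0.0952), beside 22.7% of all tested clusters called (15.3% higher and 7.41% lower). Over all clusters 2479 were higher and 1198 lower, a split that became 2663 and 685 after median centring and 2156 and 1600 after a repeated quantile normalization. DUSP6 was 6.72 and 6.82 in set b, 1.22 ± 0.14 above set a, where its mean is below the floor (adjusted p = 0.000155). PHLDA1, a pleckstrin-like protein and ERK-induced gene, was 8.48 and 8.42 in set a and 9.60 on both arrays of set b, a difference of 1.14 ± 0.08 (adjusted p = 3.98e-06). For both genes the arrays of set b lay above those of set a, as held for 39.6% of clusters. SPRY2 (0.96), ETV4 (0.84), SPRED1 (0.69), ETV1 (0.66, below the floor in both sets), DUSP5 (0.57) and DUSP4 (0.57) were higher in set b as well. The DUSP4 and ETV1 calls each ended when some single arrays were left out: DUSP4 without replicate 1 of either set (adjusted p = 0.0640 and 0.0727), ETV1 without set a replicate 2 (0.0973) or without either array of set b (0.0727 and 0.0586). The empty vector arrays were also above set a for 5 of the 9 (DUSP6 by 1.02, SPRY2 0.90, PHLDA1 0.87, ETV4 0.61 and DUSP5 0.44), beside 24.9% of clusters called (12.8% higher), whereas set b was above the empty vector for SPRED1 only (0.57), beside 1.9% of clusters called. Both sets are labelled as scrambled shRNA in the same line. The sources used here do not say how they differ.

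The shEZH2 changes therefore depended on the control, and those of DUSP6, SPRED1 and PHLDA1 were above 0 against set a and below 0 against set b. Against set b, the shEZH2 arrays were lower for 7 of the 9 tested genes, DUSP6 among them (-0.47 ± 0.14, adjusted p = 0.0328), beside 26.7% of clusters called (15.4% lower). The others were SPRY2 (-1.34), PHLDA1 (-1.002), ETV4 (-0.92), DUSP4 (-0.64), DUSP5 (-0.61) and SPRED1 (-0.61). Against the empty vector arrays, 5 genes were lower (SPRY2, PHLDA1, ETV4, DUSP5 and DUSP4), beside 24.6% of clusters called (10.8% lower), and DUSP6 was at -0.27 (adjusted p = 0.192). SPRY2 was called lower against each of the 3 control groups (-0.38 to set a, -1.34 to set b and -1.28 to the empty vector), as were 1.78% of clusters. ETV1, in the test only through shEZH2 arrays, was higher than set a, set b and the empty vector by 1.73, 1.07 and 1.34, with every group mean below the floor. Its shEZH2 arrays, at 5.54 and 6.16, lay above the other 10 HCC70 arrays, which reached at most 4.80. Of all tested clusters 8.14% had that order, and nothing is read from the share for a gene that those arrays brought into the test. ETV5, below the floor in all these groups, was above 0 against all 3 and called against the empty vector arrays only (0.53, adjusted p = 0.00644). These comparisons share the shEZH2 arrays and are not independent.

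**Figure D2:**
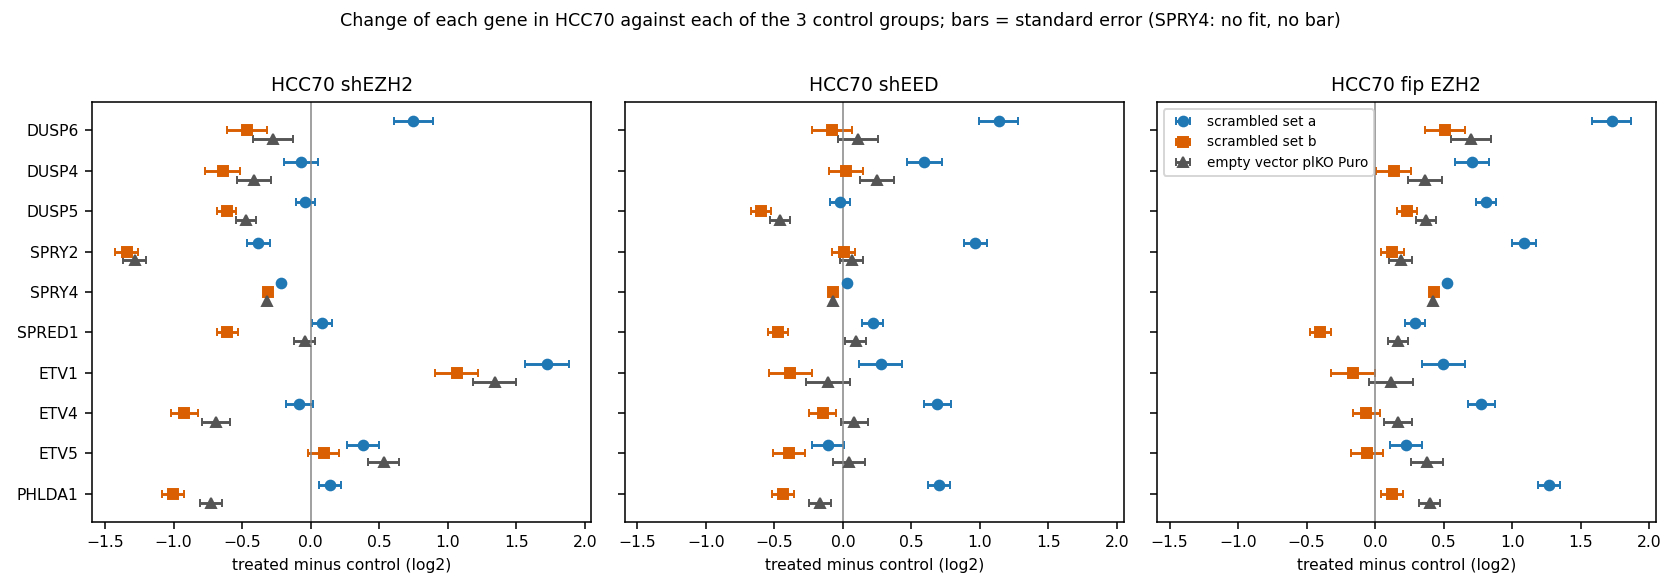
Change of each gene (log2, with standard error) in the shEZH2, shEED and fip EZH2 arrays of HCC70 against scrambled set a, scrambled set b and the empty vector. DUSP6 in the shEZH2 arrays is 0.75 above set a and -0.47 against set b, while ETV1 lies to the right of 0 for all 3 controls and SPRY2 to the left.

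A subset split the HCC70 arrays the same way. For DUSP6, DUSP4, SPRY2, ETV4 and PHLDA1 all 4 arrays of set a and shEZH2 lay below the other 8 HCC70 arrays, as did 10.1% of all tested clusters (6.87% lay above). SPRY2 ran from 7.44 to 7.98 in those 4 arrays and from 8.81 to 9.05 in the rest. ETV4 ran from 5.91 to 6.06 against 6.57 to 6.98, and PHLDA1 from 8.42 to 8.65 against 9.09 to 9.79. The gap was wide for SPRY2 and very narrow for DUSP6, where the highest of the 4 and the lowest of the 8 both rounded to 6.53. Those 4 arrays carry adjacent sample codes, and the labels name no batch. Each comparison with an own control stays among adjacent codes, and comparisons with the other control groups do not. Where the latter are made, construct and block cannot be told apart.

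After knockdown of EED, neither DUSP6 nor ETV1 was called against set b, and DUSP5, SPRED1 and PHLDA1 were lower. DUSP6 was 6.72 and 6.82 in set b and 6.67 and 6.71 in the shEED arrays, a change of -0.08 (95% interval -0.40 to 0.24; adjusted p = 0.793). ETV1 was 4.80 and 4.77 against 4.50 and 4.31, a change of -0.38 below the floor (adjusted p = 0.138). The groups did not overlap for either gene, as held for 68.5% of clusters, and neither change passed the test. Against set b, 4 of the 9 tested genes were called lower and 0 higher, beside 14.2% of clusters called (6.63% higher and 7.53% lower). DUSP5, the nuclear ERK phosphatase, was 8.71 and 8.68 in set b and 8.12 and 8.08 in the shEED arrays, and fell by 0.60 ± 0.07 (1.51-fold; adjusted p = 0.000203). SPRED1 went from 7.94 and 7.83 to 7.40 and 7.42 (fell by 0.47 ± 0.08, adjusted p = 0.00154), and PHLDA1 from 9.60 on both arrays to 9.09 and 9.22 (fell by 0.44 ± 0.08, adjusted p = 0.00335). The fourth call was ETV5, at -0.39 ± 0.12 (adjusted p = 0.0410) between group means of 5.24 and 4.84 that are both below the floor, and it ended when any 1 of the 4 arrays was left out (adjusted p from 0.108 to 0.239). SPRY2 changed by 0.0046 and its 95% interval ran from -0.18 to 0.19. EED itself was 1.77-fold lower and EZH2 1.18-fold lower in the shEED arrays.

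The EED result also moved with the control. Against set a, 6 genes were called higher (DUSP6 by 1.14, SPRY2 0.97, PHLDA1 0.70, ETV4 0.69, DUSP4 0.60 and SPRED1 0.22) and 0 lower, beside 36.7% of clusters called (22.8% higher). Against the empty vector arrays, DUSP5 alone was called, at -0.46 (adjusted p = 0.00195), beside 13.5% of clusters. DUSP5 was thus lower than set b and the empty vector, and at -0.02 against set a.

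The knockdown effects, each against its own control, were compared in 1 model. The EZH2 effect was above the EED effect for 6 of the 9 tested genes, beside 6.31% of clusters called (4.35% higher and 1.96% lower): DUSP6 by 0.83 ± 0.20 (adjusted p = 0.0331), ETV5 by 0.77 (0.0156), PHLDA1 by 0.58 (0.0101), DUSP5 by 0.56 (0.00650), SPRED1 by 0.56 (0.00968) and ETV1 by 2.11. Of these 6, ETV1 and ETV5 had HCC70 means below the floor in all 4 groups. ETV1 entered the test only through shEZH2 arrays and ETV5 only through MDA-MB-468 arrays. SPRY2 differed the other way by -0.39 and was not called (0.0813). With the scrambled sets exchanged, the difference turned for 4 of these 6, to -1.60 for DUSP6, -1.71 for PHLDA1, -0.83 for SPRED1 and -0.59 for DUSP5. ETV1 and ETV5 kept their sign, ETV5 without a call (0.20, adjusted p = 0.335). Without set b replicate 1 the count called fell from 6 to 3. The DUSP6 call ended when any 1 of 6 of the 8 arrays was left out (adjusted p from 0.0750 to 0.123; it held without set a replicate 2 or shEZH2 replicate 2), and after median centring (0.0653). ETV5 lost its call without set a replicate 1, set b replicate 2 or shEED replicate 2 (0.0694 to 0.0758), PHLDA1 without set a replicate 2, set b replicate 1 or shEED replicate 1 (0.0511 to 0.0600), and SPRED1 without set b replicate 1 (0.0631).

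EZH2 overexpression came with more DUSP6, DUSP5 and PHLDA1 signal. EZH2 signal itself was only 0.29 ± 0.07 above the empty vector (1.23-fold; adjusted p = 0.0961). DUSP6 was 6.63 and 6.53 with the empty vector and 7.26 and 7.31 with fip EZH2, a rise of 0.70 ± 0.14 (1.63-fold; adjusted p = 0.0464). DUSP5 went from 8.63 and 8.49 to 8.94 and 8.92 (0.37 ± 0.07, adjusted p = 0.0340), and PHLDA1 from 9.32 and 9.33 to 9.65 and 9.79 (0.40 ± 0.08, adjusted p = 0.0412). The treated arrays were above the controls for all 3 genes, as held for 25.8% of clusters. They are 3 of the 9 tested, beside 0.977% of clusters called (0.909% higher and 0.068% lower). The other changes were above 0 as well, from 0.12 for ETV1 to 0.43 for the untested SPRY4, where 56.1% of all clusters were above 0. All 3 calls ended when any 1 of the 4 arrays was left out (adjusted p from 0.0553 to 0.376), when low clusters were kept, and under another centring of the arrays. The count ran from 1 to 8 of the 9 with the control. Against set a, 8 genes were higher, all but ETV5 (DUSP6 by 1.73, PHLDA1 by 1.27 and SPRY2 by 1.09 among them), beside 26.1% of clusters called (15.5% higher). Against set b, DUSP6, DUSP5 and PHLDA1 were not called and SPRED1 was lower (-0.40, adjusted p = 0.0314), beside 1.04% of clusters called. The intended direction of EZH2 was opposite in the knockdown and overexpression arrays, and the DUSP6 change was above 0 in both, each against its own control group.

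**Figure D3:**
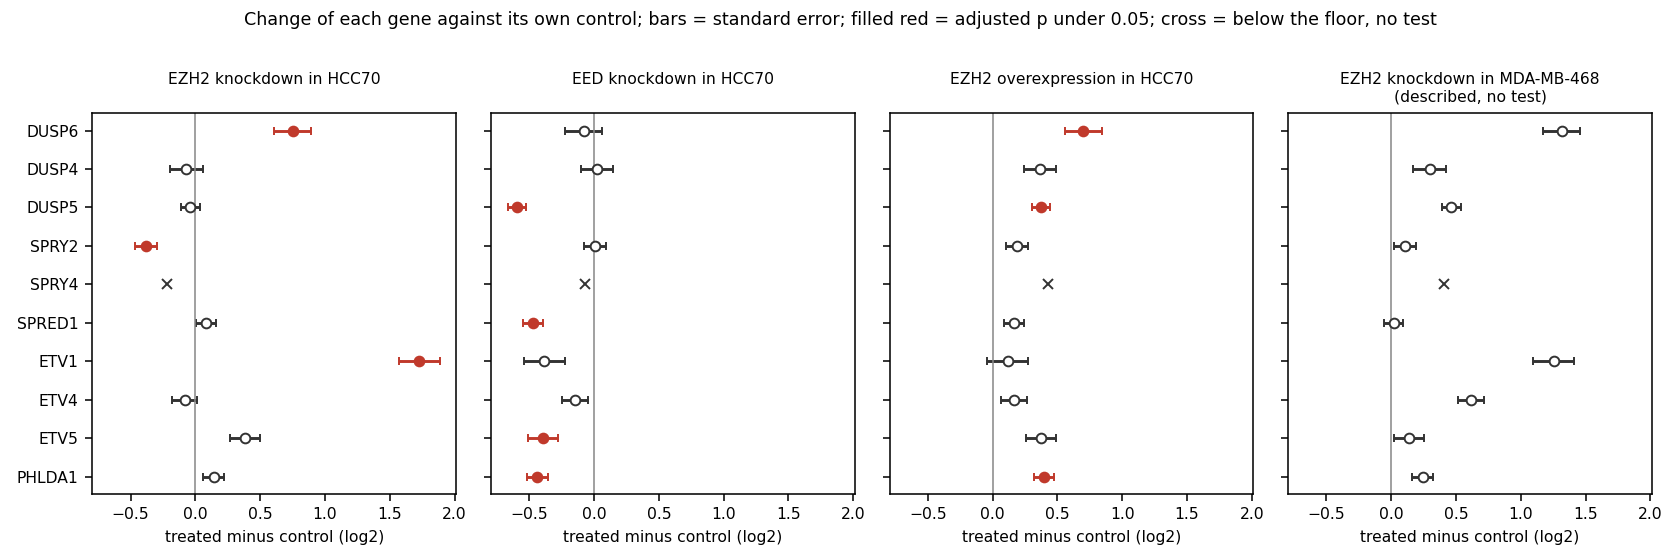
Change of each gene against its own control (log2, with standard error) for the 4 treatments; filled red points passed an adjusted p of 0.05, open points did not, and crosses mark SPRY4, which was not tested; ETV1 entered the test only through shEZH2 arrays. DUSP6 lies to the right of 0 in EZH2 knockdown and in EZH2 overexpression of HCC70 and in MDA-MB-468, and near 0 (-0.08) in EED knockdown.

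In MDA-MB-468, whose values chose the genes, EZH2 was 3.19-fold lower in the shEZH2 arrays and all 10 changes were above 0, except that SPRED1 came to -0.04 after median centring. DUSP6 was 6.33 and 6.31 in the control arrays and 7.53 and 7.74 after knockdown, a change of 1.32 ± 0.14 (2.49-fold). ETV1 was 4.75 and 4.68 in the controls and 5.87 and 6.06 after knockdown, a change of 1.25 between means below the floor. Both were far apart from their controls, which is why they were picked. ETV4 changed by 0.62, DUSP5 by 0.46, SPRY4 by 0.41, DUSP4 by 0.30, PHLDA1 by 0.24, ETV5 by 0.14, SPRY2 by 0.11 and SPRED1 by 0.02. The SPRED1 groups overlapped (8.08 and 8.10 against 8.14 and 8.07) and those of the other 9 genes did not, beside 22.3% of all clusters with both treated arrays above both controls. Of all tested clusters, 45.6% were above 0. Nothing is read from these shares, since the genes were picked on this contrast. No test is given for these values, and with 1 control group in this line the control cannot be varied.

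Side by side, the EZH2 knockdown changes in HCC70 (against set a) and MDA-MB-468 were 0.75 and 1.32 for DUSP6 and 1.73 and 1.25 for ETV1. They were -0.38 and 0.11 for SPRY2, -0.08 and 0.62 for ETV4, and -0.04 and 0.46 for DUSP5. The ETV1 means after knockdown were 5.85 in HCC70 and 5.97 in MDA-MB-468. Between the control arrays of the lines, ETV5 (5.93 in MDA-MB-468 and 4.99 in HCC70), SPRED1 (0.62 higher) and SPRY4 (0.40 higher) were higher in MDA-MB-468. The ETV5 and SPRY4 means were below the floor in both lines, so the sizes of their differences are less certain. Against the mean of all HCC70 control arrays, SPRY2 (-0.83), ETV4 (-0.40), DUSP5 (-0.39) and PHLDA1 (-0.35) were lower in MDA-MB-468. DUSP6 was level (0.02). For DUSP6, ETV4 and PHLDA1 the direction depended on the HCC70 control. Their MDA-MB-468 control means (6.32, 6.14 and 8.78) were above set a (5.55, 6.06 and 8.45) and below set b (6.77, 6.90 and 9.60). These line differences are descriptions, with 2 control arrays in MDA-MB-468 and 6 in HCC70.

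Across the 16 arrays, after the mean of each line was subtracted, the 8 genes other than ETV1 and ETV5 gave Pearson's r of 0.25 to 0.90 over their 28 pairs (median 0.70). The highest values were among DUSP6, DUSP4, DUSP5, SPRY2, ETV4 and PHLDA1, 6 genes picked out after their coefficients were seen (0.61 to 0.90 over 15 pairs). SPRY4 reached 0.76 with DUSP5, and SPRED1 0.70 with PHLDA1, while the lowest pair was SPRY4 with SPRED1. ETV1 and ETV5 stood apart from them, with r of 0.70 to each other and -0.41 to 0.41 (median 0.01) with the other 8 genes. ETV4, the third factor of the PEA3 group, went with the phosphatases and Sprouty (r = 0.88 with SPRY2) and not with ETV1 (r = -0.02). The arrays share their groups and the gap between the HCC70 blocks, so these coefficients describe the data set and carry no test.

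**Figure D4:**
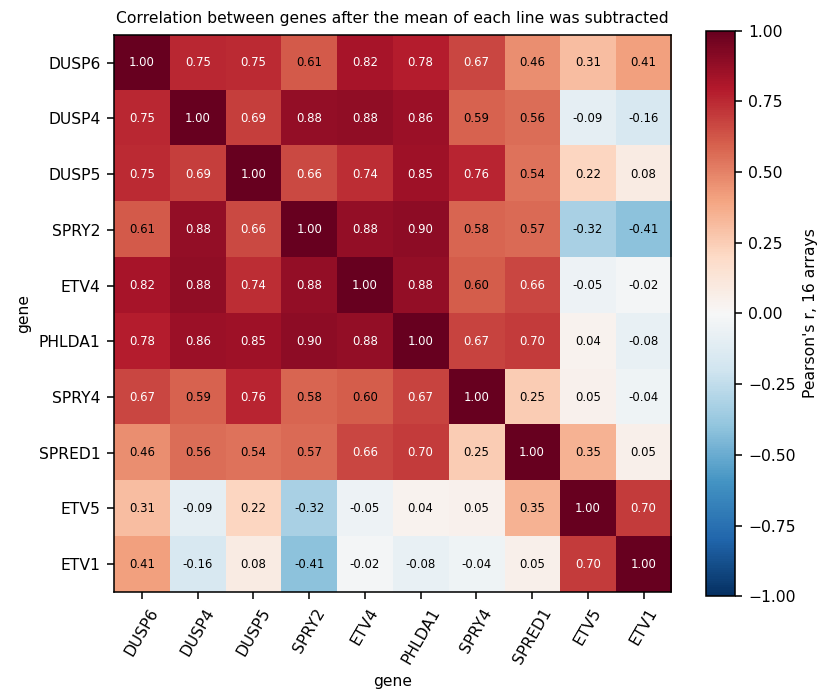
Pearson's r between each pair of the 10 genes over 16 arrays after the mean of each line was subtracted. The 8 genes from DUSP6 to SPRED1 run from 0.25 to 0.90 with each other, and ETV5 and ETV1 run from -0.41 to 0.41 with them and are at 0.70 with each other.

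The tested clusters most like DUSP6 over the 16 arrays were TSPAN14 (r = 0.917), MAMLD1 (0.896) and FAR2 (0.890). Those most like ETV1 were RAB31, a small GTPase of vesicle transport (r = 0.918), the potassium channel gene KCNK2 (0.908) and YIPF3 (0.871). RAB31 was 0.66 higher after EZH2 knockdown in HCC70 and 0.60 higher in MDA-MB-468. These genes were selected as the highest coefficients among all, so the values have no test.

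Other genes of the pathway were counted from 5 lists, which overlap in a few genes. Of 39 ERK output genes outside the 10, 33 were tested. Against set a, EZH2 knockdown raised 5 of them and lowered 2 (15.2% and 6.06%, beside 7.3% and 4.06% of all clusters; median change 0.03, against 0.01), among them EMP1, an epithelial membrane protein (-0.84), the urokinase receptor gene PLAUR (0.43) and the AP-1 gene JUNB (0.42). After EED knockdown 4 rose and 9 fell (12.1% and 27.3%, beside 6.63% and 7.53%; median -0.13), with the protease inhibitor gene TFPI2 at -1.93 ± 0.10 (adjusted p = 3.19e-07), the urokinase gene PLAU at -1.07, the cyclin gene CCND1 at -0.84 and the early response gene EGR1 at 0.73. With EZH2 overexpression 10 rose and 0 fell (30.3% higher, beside 0.909%; median 0.39), led by the cytokine genes LIF (1.60 ± 0.14, adjusted p = 0.000555) and CXCL8 (1.28) and the phosphatase gene DUSP1 (1.05). Over all clusters the 158 calls of that comparison dropped to between 14 and 97 when 1 of its 4 arrays was left out. Set b was above set a for 23 of the 33 and below it for 0 (69.7% higher, beside 15.3%; median 0.53), with KLF6 at 1.70, and with LIF at 2.71 and CXCL8 at 2.42 from set a means below the floor, so that these 2 sizes are uncertain. By count and by median, the gap between the scrambled sets was the widest of these 4 comparisons for this list too. All list counts use each treatment's own control, and the lists were not counted against other controls. In the shEZH2 arrays of HCC70, PLAUR (9.68) was above set a but below set b (9.82) and the empty vector (9.92). JUNB (9.19) was near set b and the empty vector (9.11 and 9.12), and EMP1 (10.75) was below them (11.88 and 11.78). In the shEED arrays, PLAU (7.99) was below set b (9.05) but above set a (7.75). There TFPI2 and CCND1 were below both sets and EGR1 was above both.

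The feedback relatives outside the 10 had 1 to 3 calls in each treatment of HCC70. Of 14 tested DUSP, Sprouty and SPRED genes, EZH2 knockdown raised only IL17RD, an inhibitor of FGF signalling (0.42 from a mean below the floor, adjusted p = 0.0467), which is 7.14% beside 7.3% of all clusters. EED knockdown raised DUSP7 (0.40) and lowered SPRY1 (-0.38) and DUSP14 (-0.29), or 7.14% and 14.3% beside 6.63% and 7.53%. The shEED mean of DUSP14 (8.49) was below set b (8.78) but above set a (7.61), whereas DUSP7 was above both sets and SPRY1 below both. EZH2 overexpression raised DUSP1 (7.14%, beside 0.909%), and 6 of the 14 were higher in set b than in set a (42.9%, beside 15.3%). Of 28 tested genes of the cascade and its adaptors, 1 was called in EZH2 knockdown (RASA3, a RAS GTPase activator, 0.48 from a mean below the floor), which is 3.57% beside 7.3% of clusters higher. EED knockdown raised MKNK2 (0.70) and lowered GRB2 and PEBP1 (both -0.34) and RPS6KA3 (-0.30), or 3.57% and 10.7% beside 6.63% and 7.53%. The shEED mean of RPS6KA3 (9.89) was below set b (10.19) but above set a (9.79). MKNK2 was above both sets, and GRB2 and PEBP1 were below both. In overexpression 0 were called by limma, beside 0.977% of all clusters, and 6 of the 28 had an unadjusted p under 0.05. Set b was above set a for 5 of them and below it for 4 (17.9% and 14.3%, beside 15.3% and 7.41%), with both MEK genes lower (MAP2K1 -0.43 and MAP2K2 -0.44).

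Of 18 tested receptors and ligands, KIT, the stem cell factor receptor, was called in all 3 treatments of HCC70. It fell by 1.74 ± 0.13 after EZH2 knockdown, to below the floor (adjusted p = 6.78e-06), rose by 1.36 ± 0.13 after EED knockdown (adjusted p = 3.57e-05) and fell by 1.24 ± 0.13 with overexpression (adjusted p = 0.00156). These KIT changes are against each treatment's own control, and set b was itself 0.78 above set a (adjusted p = 0.00142 by limma). The fip EZH2 mean (6.38) was near set a (6.32) and below set b (7.10) and the empty vector (7.61). The shEZH2 mean (4.57) was below all of these controls and the shEED mean (8.46) above them. EGF fell in both HCC70 knockdowns (-0.74, to below the floor, and -0.96). FGFR2, below the floor in every HCC70 group, was called after EZH2 knockdown (0.65), and its change in MDA-MB-468 was -0.79. EED knockdown lowered 9 of the 18, among them MET (-0.68) and FGF2 (-0.66), and raised 1, beside 7.53% and 6.63% of all clusters. EGFR, highly expressed in MDA-MB-468, changed by -0.08 (adjusted p = 0.705) after EZH2 knockdown in HCC70 and was 11.35 and 11.34 (group means) in the control and shEZH2 arrays of MDA-MB-468. Of 15 tested ETS factors outside the PEA3 group, 0 were called in EZH2 knockdown by limma, beside 11.4% of all clusters. An unadjusted p under 0.05 was found for 4 of them. After EED knockdown ELK3 fell (-0.54) and GABPA rose (0.45), and SPDEF was called at -0.51 with both means below the floor. These are 2 lower and 1 higher of the 15, or 13.3% and 6.67%, beside 7.53% and 6.63% of all clusters. ETS1 rose with overexpression (0.41), which is 6.67% beside 0.909% of clusters higher.

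**Figure D5:**
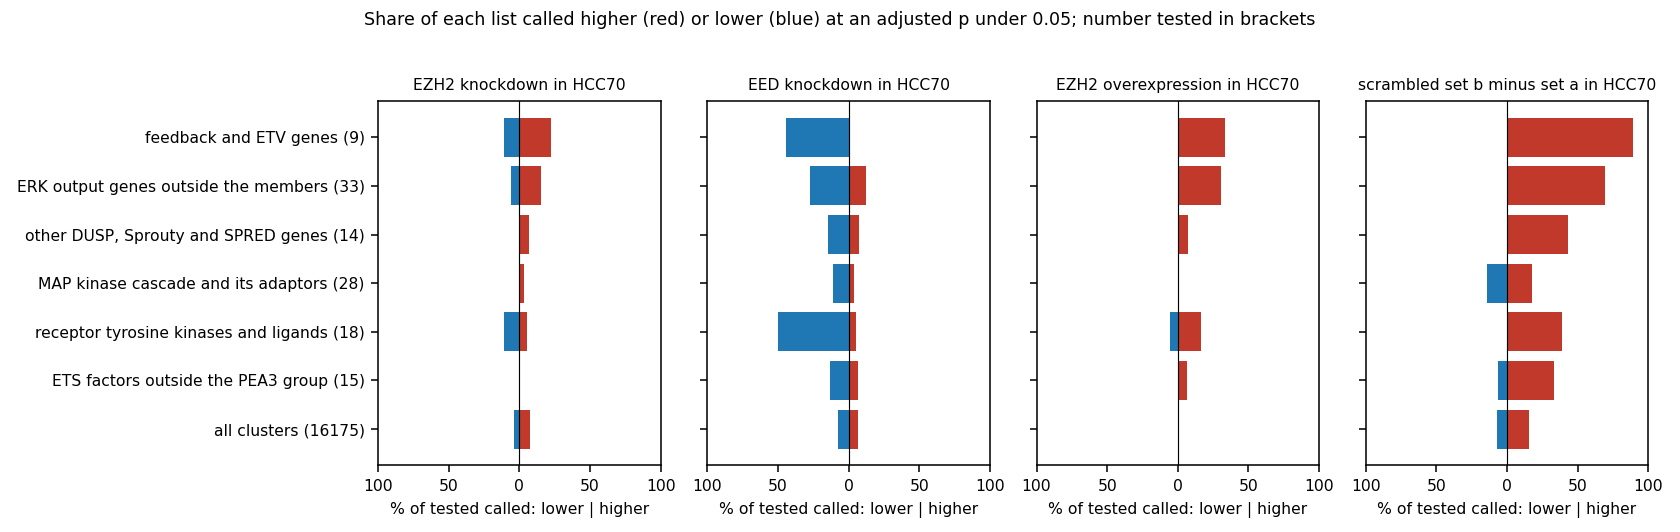
Share of the tested genes of each list called higher (red, to the right) or lower (blue, to the left) in 4 HCC70 comparisons, with the number tested in brackets and all 16175 tested clusters as the last bar. The widest red bars are in the comparison of the 2 scrambled sets, where 8 of 9 feedback and ETV genes and 23 of 33 ERK output genes are higher in set b.

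The arrays were alike in overall signal, each having a median between 5.37 and 5.53 and 43.1% to 44.5% of its clusters at the floor or higher, and duplicates correlated at 0.994 to 0.997. All 8 epithelial markers checked were at the floor or above on every array. Of 11 markers of other cell types, 8 reached it on no array, CD14 and COL1A1 on all 16 and ACTA2 on 6. Their mean ran from 5.02 to 5.34 over the groups. In these bulk samples, fewer cells that express a gene and less RNA per cell cannot be told apart. Nothing in the labels says that duplicates came from separate cultures, so the p-values measure the spread between these samples, which may be technical.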

How the data were processed

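Log2 signals of 33297 transcript clusters on 16 Affymetrix Human Gene 1.0 ST arrays were used as deposited. Per the submitters' processing notes, the authors made these log2 values with RMA in Affymetrix Expression Console; the sources used here name no versions and no genome build. RMA adjusts background, normalizes between arrays and summarises probes, which tends to understate changes of dim clusters. Arrays give no read depth, and their number limits the precision.

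The sample titles gave the groups. A model of 8 group means was fitted with limma 3.58.1 (lmFit, eBayes) in R 4.3.3 to the 16175 clusters with at least 2 arrays at log2 6; 17122 were left out. Tests were two-sided with Benjamini-Hochberg adjustment within each of 5 comparisons. The fit was tested on simulated data. Symbols came from the platform annotation.

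The 10 genes, the lists and the tests were chosen with earlier results of these data known. Named genes are the 10, up to 4 called genes of largest change per list and comparison, the 3 clusters most like DUSP6 and ETV1, and EZH2 and EED; EGFR was added after its values were seen. Alternatives were other floors, centring, quantile normalization, a trended and robust fit, 1-symbol clusters, the replicate number as a block, fewer arrays and other control groups. Promoter sequences are RefSeq's (GRCh38.p14), matched by symbol for 6 of the 10 genes.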

Additional observations from a re-analysis of the deposited data

Results flagged for a closer look

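In HCC70 the effect of EZH2 knockdown (against scrambled set a) differed from that of EED knockdown (against set b) for 6 genes. The contrast was of the same limma model, and 6.31% of all tested clusters were called in it (4.35% higher and 1.96% lower). With the scrambled sets exchanged, the difference turned sign for DUSP6, PHLDA1, DUSP5 and SPRED1. The difference was 0.83 for DUSP6 (adjusted p = 0.0331), 0.77 for ETV5 (0.0156), 0.58 for PHLDA1 (0.0101), 0.56 for DUSP5 (0.00650) and 0.56 for SPRED1 (0.00968), on the log2 scale. It was 2.11 for ETV1, which entered the test only through shEZH2 arrays, as ETV5 did only through MDA-MB-468 arrays. The HCC70 means of ETV1 and ETV5 were below the floor in all 4 groups. Set b was above set a by 1.22 for DUSP6, 1.14 for PHLDA1, 0.69 for SPRED1, 0.66 for ETV1 and 0.57 for DUSP5, and the part of that gap in these differences was not tested.

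For 3 genes both shEZH2 arrays of HCC70 lay below their controls and both of MDA-MB-468 lay above theirs. Of these, SPRY2 was called in HCC70 (-0.38), ETV4 was not (-0.08, adjusted p = 0.643 by limma) and SPRY4 was not tested. The HCC70 change minus the MDA-MB-468 change was -0.49 for SPRY2, -0.62 for SPRY4 and -0.70 for ETV4. These line differences were not tested, since MDA-MB-468 was used to choose the genes, and SPRY4 was below the floor throughout. Over all tested clusters, treated and control arrays did not overlap, in either direction, for 53.3% in HCC70 and 51.3% in MDA-MB-468. The share with opposite order in the lines was not counted, so nothing is read from the count of 3.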

How the results depend on the processing

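The results moved with the control group and, for overexpression, with the numerical settings. Counts are of the 9 tested genes called, ETV1 and ETV5 included. For EZH2 knockdown in HCC70 the count of 3 became 8 against set b and 7 against both scrambled sets. It was also 7 against the empty vector (chosen after seeing the data). The share of all tested clusters called was 11.4% in the main setting, and 26.7%, 18.8% and 24.6% against those controls. With only the 4 arrays of the comparison fitted the count was 1. That was ETV1, in the test only through shEZH2 arrays, so nothing is read from it. DUSP6 (adjusted p = 0.146) and SPRY2 (0.176) lost their calls in that fit. For EED knockdown the 4 became 1 against the empty vector (chosen after seeing the data), with 14.2% and 13.5% of clusters called. For overexpression the 3 became 6 against both scrambled sets, 8 against set a and 1 against set b (the last 2 chosen after seeing the data). The share of clusters called was 0.977% in the main setting, and 9.5%, 26.1% and 1.04% against those controls. The overexpression count was 0 with no floor, with median centring, with a repeated quantile normalization and with only its own arrays. For set b against set a the 8 became 5 with a floor of log2 7, which leaves 5 of the 9 in the test. Leaving out 1 array at a time gave 2 to 4 called in EZH2 knockdown, 3 in EED knockdown, 0 in overexpression, 6 to 7 between the sets and 3 to 7 for the difference of the knockdown effects. The median change in MDA-MB-468 over the 9 tested genes, 0.30, was 0.24 after median centring and ran from 0.25 to 0.40 when 1 array was left out.

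Changes that turned sign, and were called in the main setting or in the alternative, were as follows. Turns of changes called in neither are left out. EZH2 knockdown: against set b, DUSP6 -0.47, SPRED1 -0.61 and PHLDA1 -1.002; against both sets, SPRED1 -0.26 and PHLDA1 -0.43; against the empty vector, DUSP6 -0.27 and PHLDA1 -0.73. EED knockdown: against set a, DUSP6 1.14, SPRED1 0.22, ETV4 0.69 and PHLDA1 0.70; against both sets, DUSP6 0.53, ETV4 0.27 and PHLDA1 0.13; against the empty vector, SPRED1 0.094 and ETV5 0.044. Overexpression against set b gave SPRED1 -0.40. For the difference of the knockdown effects, exchanged sets gave DUSP6 -1.60, DUSP5 -0.59, SPRED1 -0.83, ETV4 -1.61 and PHLDA1 -1.71, and both sets for both knockdowns gave DUSP6 -0.39, DUSP5 -0.016, SPRED1 -0.14, ETV4 -0.77 and PHLDA1 -0.56. The cause was not tested.

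Replicate numbers did not pair the arrays: deviations of same-numbered arrays correlated at -0.02 to 0.08 over the 4 treated and control pairs. With the replicate number as a block, 3 genes were called in EZH2 knockdown, 3 in EED knockdown, 0 in overexpression (39 clusters in place of 158), 8 between the sets and 3 for the difference. Counts over all clusters moved most with the control and with the arrays fitted: from 1837 to 4325 (set b), 3048 (both sets), 3977 (empty vector) and 276 (own arrays only) in EZH2 knockdown, from 2290 to 5940 (set a), 4465 (both sets) and 4439 (own arrays only) in EED knockdown, from 158 to 4227 (set a), 1536 (both sets), 88 (no floor) and 0 (own arrays only) in overexpression, from 3677 to 6269 (own arrays only) between the sets, and from 1021 to 6843 (exchanged), 5169 (both sets) and 677 (median centring) for the difference. Leaving out 1 array gave as few as 688 (without set a replicate 2) in EZH2 knockdown, 1013 (without set b replicate 1) in EED knockdown, 14 (without fip EZH2 replicate 2) in overexpression, 1604 (without set b replicate 1) between the sets and 461 (without set b replicate 1) for the difference. An alternative with another cluster of a gene could not be run, as each gene has 1.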
